A study of Mus musculus with 55 samples.

Results

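Excitatory transmission between cultured forebrain neurons was examined through 28 mouse genes that encode ionotropic and metabotropic glutamate receptors, the auxiliary proteins that travel with them, and the transporters that load glutamate into synaptic vesicles. The genes were taken from a named list, which was drawn up with earlier results of these data known, and the RefSeq transcript with the most counts stood for each gene. They were 28 of 28492 genes listed in the first of 2 experiments and of 28216 in the second. The members were the AMPA receptor subunits Gria1, Gria2, Gria3 and Gria4, the AMPA receptor partners Cnih2 and Cnih3, the kainate receptor subunits Grik1 to Grik5 with their partners Neto1 and Neto2, and the NMDA receptor subunits Grin1, Grin2a, Grin2b, Grin2c, Grin2d and Grin3a. The list was completed by the delta receptor Grid1, the metabotropic receptors Grm2, Grm3, Grm4, Grm5, Grm7 and Grm8, and the vesicular transporters Slc17a6 and Slc17a7.

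AMPA receptors are tetrameric cation channels that carry most of the fast excitatory current, and their GluA2 subunit, encoded by Gria2, lowers calcium entry when its mRNA is edited. NMDA receptors pair the obligatory GluN1 subunit, encoded by Grin1, with GluN2 or GluN3 subunits that set their kinetics and change during postnatal development. Metabotropic receptors signal through G proteins, those of group I mostly after and those of groups II and III mostly before the synapse, and a glutamatergic neuron is recognised by VGLUT1, encoded by Slc17a7, or VGLUT2, encoded by Slc17a6.

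The samples were 55 bulk 3′ end RNA-seq libraries from primary neurons of cortex and hippocampus, dissected from CD1 mouse embryos of mixed sex at embryonic day 16 to 17.5 and plated as mixed cultures. In the maturation experiment (28 samples), cultures at 7 days in vitro (7DIV) and at 21DIV, titled 23DIV in the labels, were left unstimulated (basal), depolarised with 55 mM KCl, or treated with 50 uM bicuculline (Bic), which blocks inhibition through GABA-A receptors, in a mixture with 2.5 mM of the potassium channel blocker 4-aminopyridine, for 15 or 180 min. In the stimuli experiment (27 samples), 21DIV cultures were basal, were treated for 15, 45 or 180 min with 55 mM KCl or with 50 uM Bic alone, or were silenced for 48 h with 1 uM tetrodotoxin (TTX), a sodium channel blocker, which was then washed out for 15, 45 or 180 min (TTXw). Groups held 2 to 4 samples, and control cultures were washed in the same way as the TTXw cultures. The headers of the counts also carry letter codes of unstated meaning. In the maturation experiment these were A or B at 7DIV and C, D or E at 21DIV, with E only for Bic at 180 min. In the stimuli experiment KCl and Bic had B at 15 and 45 min and A at 180 min, TTX and TTXw had A, and basal samples had both. Differences tied to these codes cannot be told apart from stage or, for KCl and Bic, time. No genotype was altered in any group. The labels number the replicates but do not say whether they were separate cultures, so p-values measure the spread between these samples, which may be technical.

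Values are CPM, the usual depth-scaled unit, in which a gene's counts are divided by the library's counts on genes after TMM scaling of that total. The libraries count 3′ ends and CPM was not divided by length, so levels are compared across samples for 1 gene and not between genes. A gene was called when edgeR's quasi-likelihood test gave a Benjamini-Hochberg adjusted p under 0.05, jointly over the time points of a comparison, and the fold was at least 1.5 at 1 or more of them. Of the 28 members, 24 passed the filter of more than 5 CPM in at least 2 samples among the basal samples of the maturation experiment, 26 passed it over that whole experiment and 27 over the stimuli experiment. Grin2d, a GluN2 subunit of early and inhibitory neurons, was too low in both experiments, with 25 and 3 counts in all and a count of 0 in 23 of 28 and 24 of 27 samples. Grik4, a kainate subunit that needs a low-affinity partner, was too low in the maturation experiment.

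Depth on genes ran from 1659722 to 4474968 counts at 7DIV (n = 15), from 1784170 to 14012872 at 21DIV in the maturation experiment (n = 13) and from 1177500 to 3909487 in the stimuli experiment (n = 27). The deepest library was the 21DIV KCl 15 min replicate 1, in which Grin2b stood apart (given with that comparison). The summed level of 9 neuronal markers was 11500 to 11700 CPM in 7DIV basal samples and 9360 to 10700 in 21DIV basal samples, while that of 12 astrocyte markers went from 1010–1290 to 5430–6560 CPM and that of the oligodendrocyte lineage markers from 474–751 to 2520–3320 CPM. Gjb6 of the astrocyte list and Mobp of the oligodendrocyte list were at 0 in every 7DIV basal sample. Microglial markers summed to at most 20.6 CPM and endothelial and mural markers to at most 64.5 CPM in any sample, with Trem2 among those at 0. In these bulk samples fewer cells of a type and less RNA per cell cannot be told apart.

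Between 7DIV and 21DIV, members of the list were called in both directions: VGLUT1, 2 AMPA subunits and an NMDA subunit were among those higher, and mGluR2, VGLUT2 and Neto2 were lower. Of 24 members tested in the basal samples, 11 were called (45.8%), beside 33.1% of all 10510 genes tested, and 8 of these 11 were higher and 3 lower at 21DIV. The median log2 fold change of the 24 members was 0.32, against 0.01 for all genes. The plot of fold changes by role shows calls in both directions among the vesicular transporters and the kainate receptor partners, and higher values only among the called AMPA, NMDA and delta subunits.

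**Figure D1:**
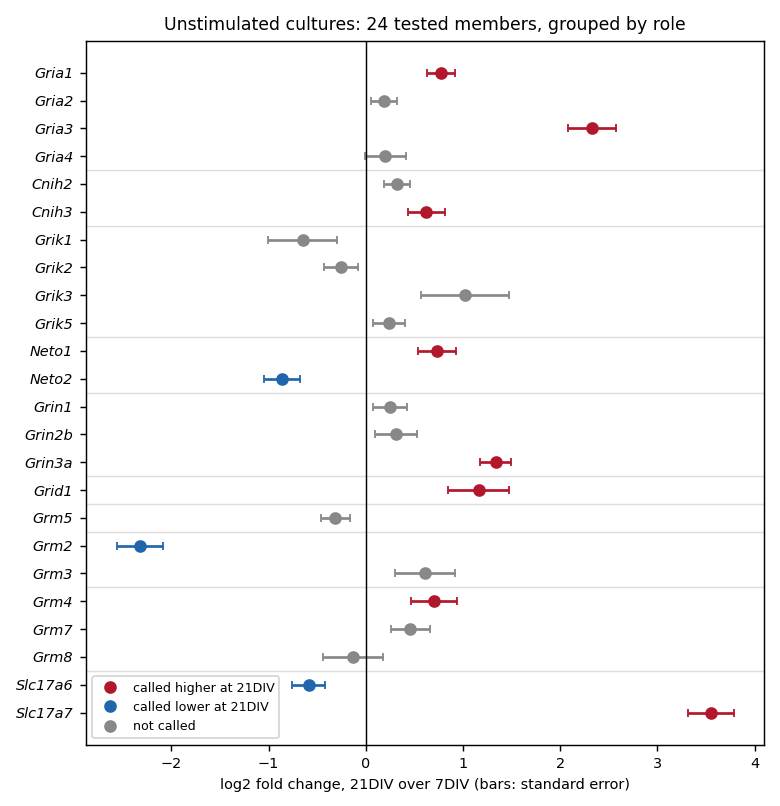
Log2 fold change of each of the 24 tested members between 21DIV and 7DIV basal samples (horizontal axis; bars, standard error; 3 samples per stage), with members in rows grouped by role. Red marks the 8 members called higher at 21DIV, blue the 3 called lower (Neto2, Grm2 and Slc17a6) and grey the 13 not called; Slc17a7 lies farthest to the right at 3.55 and Grm2 farthest to the left at −2.32.

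The vesicular transporters moved in opposite directions. Slc17a7 (chromosome 7, 45163921 to 45176139 on GRCm38.p6), which encodes VGLUT1 of cortical and hippocampal excitatory neurons, was at 45.0, 36.2 and 31.4 CPM in the 7DIV samples and at 284.9, 524.3 and 472.8 CPM in the 21DIV samples. Its groups were far apart, with a log2 fold change of 3.55 ± 0.232 (SE; edgeR adjusted p = 9.37e-08), or 11.7-fold higher. Slc17a6 (chromosome 7, 51621830 to 51671126), which encodes VGLUT2 of early and subcortical excitatory neurons, was at 101.4, 99.4 and 115.9 CPM at 7DIV and at 78.0, 75.8 and 54.2 CPM at 21DIV. All 21DIV samples lay below all 7DIV samples, and the log2 fold change was −0.59 ± 0.171 (edgeR adjusted p = 0.0151), a call that was lost when 7DIV replicate 4 or 21DIV replicate 3 was left out. Within a sample, the log2 ratio of Slc17a7 to Slc17a6 CPM went from −1.5 ± 0.358 (SD, n = 3) at 7DIV to 2.59 ± 0.65 (SD, n = 3) at 21DIV.

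The promoters of these transporters and of Grm2 are shown because Slc17a7 and Grm2 had the widest differences between stages in either direction, and Slc17a6 is the other vesicular transporter. Each covers 250 bases before to 50 bases after the start annotated by RefSeq on GRCm38.p6, 5′ to 3′ on the gene's own strand, with motifs found on either strand in capitals. The Slc17a7 promoter (chr7:45163671-45163970, plus strand) holds the GC box letters GGGCGG in both orientations. The Slc17a6 promoter is given for the upstream one of its annotated starts (chr7:51621580-51621879, plus strand) and holds them once. The Grm2 promoter (chr9:106656060-106656359, minus strand) holds 4 of them and, near its upstream end, the letters TTCAGCACC and GGACAGC. These letters start at bases 9 and 25 and are those of the left and right parts of the RE1 element. Each part was searched for separately, and whether their spacing is that of a whole element was not examined.
Slc17a7: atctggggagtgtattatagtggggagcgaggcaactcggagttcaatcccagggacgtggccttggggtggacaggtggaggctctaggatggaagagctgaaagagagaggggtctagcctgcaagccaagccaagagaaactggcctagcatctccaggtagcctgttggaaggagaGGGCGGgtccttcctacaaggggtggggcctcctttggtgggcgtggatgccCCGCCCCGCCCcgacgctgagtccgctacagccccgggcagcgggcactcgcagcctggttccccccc
Slc17a6: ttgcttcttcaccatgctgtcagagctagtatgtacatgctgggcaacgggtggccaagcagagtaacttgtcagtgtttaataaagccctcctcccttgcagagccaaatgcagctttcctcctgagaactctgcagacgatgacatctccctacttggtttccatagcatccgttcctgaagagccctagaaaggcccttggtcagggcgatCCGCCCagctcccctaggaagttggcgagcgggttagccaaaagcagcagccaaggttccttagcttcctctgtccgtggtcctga
Grm2: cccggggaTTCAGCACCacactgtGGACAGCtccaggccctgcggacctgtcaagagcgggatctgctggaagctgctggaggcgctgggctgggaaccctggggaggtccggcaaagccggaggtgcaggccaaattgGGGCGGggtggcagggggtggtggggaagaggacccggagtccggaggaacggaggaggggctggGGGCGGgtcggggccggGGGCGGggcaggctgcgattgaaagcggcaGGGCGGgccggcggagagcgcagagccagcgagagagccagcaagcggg
Promoter sequence was matched for 18 of the 28 members. The GC box was in 14 of these 18 and in 35.7% of all 32851 promoters of that length. A member was counted if any of its annotated promoters held the letters, whereas the share of all is per promoter, so the units differ. TTCAGCACC was in Grm2 alone and in 0.371% of all promoters, and GGACAGC in Gria2 and Grm2 and in 6.56% of all. These are matches of letters, and binding was not measured.

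Among AMPA receptor subunits, Gria3 showed the widest difference between stages. Gria3, which encodes GluA3, was at 7.1, 14.1 and 13.3 CPM at 7DIV and at 49.8, 54.2 and 66.5 CPM at 21DIV. Its log2 fold change was 2.33 ± 0.249 (edgeR adjusted p = 7.53e-06), or 5.02-fold, with no overlap. Gria1, which encodes the GluA1 subunit that is inserted during synaptic potentiation, rose from 149.7, 138 and 120.5 CPM to 200.6, 238.4 and 243.9 CPM (log2 fold change 0.77 ± 0.142, edgeR adjusted p = 0.000736). Gria2 was not called: its samples were at 515.8, 460 and 425.3 CPM at 7DIV and at 459, 602.7 and 507.6 CPM at 21DIV, ranges that overlapped (log2 fold change 0.19, edgeR adjusted p = 0.285). Gria4, a subunit prominent in early and inhibitory neurons, was at 43.1, 71.8 and 43.9 CPM and then at 64.0, 52.6 and 59.9 CPM, also overlapping (log2 fold change 0.20, edgeR adjusted p = 0.469). As a share of the counts on Gria1 to Gria4 in a sample, Gria3 went from 1.75% ± 0.661 (SD, n = 3) to 6.58% ± 0.937 and Gria1 from 20.4% ± 0.491 to 26.3% ± 1.35, while Gria2 went from 70% ± 2.45 to 60.3% ± 2.99.

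Of the AMPA receptor partners, cornichon-2 and cornichon-3, which slow channel closing and aid export from the endoplasmic reticulum, the gene Cnih3 was called and Cnih2 was not. Cnih3 was at 35.1, 38 and 42.8 CPM at 7DIV and at 46, 63.7 and 66.1 CPM at 21DIV. Its groups did not overlap (log2 fold change 0.62 ± 0.191, edgeR adjusted p = 0.0195), but the call was lost without either of 2 samples at each stage. Cnih2 was at 1936, 2164 and 1909 CPM at 7DIV and at 1938, 2671 and 2766 CPM at 21DIV (log2 fold change 0.32, edgeR adjusted p = 0.0714). Cnih2 overlaps Yif1a on the opposite strand at its 3′ end, and whether the counting used strand is not stated.

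The kainate receptor partners moved apart, whereas no kainate subunit was called. Neto1, whose protein binds kainate and NMDA receptors, rose from 36.5, 52.8 and 56.9 CPM to 70.5, 75.8 and 92.7 CPM (log2 fold change 0.73 ± 0.191, edgeR adjusted p = 0.00803, lost without 7DIV replicate 2). Neto2, whose protein modulates kainate receptor gating, fell from 224.5, 232.5 and 247.9 CPM to 87.1, 144.9 and 148.4 CPM (log2 fold change −0.86 ± 0.181, edgeR adjusted p = 0.00197). Both had separate groups, and the log2 ratio of Neto1 to Neto2 CPM in a sample went from −2.30 ± 0.283 (SD, n = 3) to −0.639 ± 0.316. Among the kainate subunits, Grik2, which encodes the low-affinity subunit GluK2, was at 62.5, 77.3 and 74.8 CPM and then at 46.9, 66.0 and 63.3 CPM (edgeR adjusted p = 0.282). Grik5, which encodes the high-affinity GluK5 and overlaps Zfp574 on the opposite strand, was at 43.1, 41.1 and 44.4 CPM and then at 47, 49.9 and 52 CPM (edgeR adjusted p = 0.284). Grik1 and Grik3, for GluK1 and GluK3, were near the filter with at most 9.75 and 8.23 CPM in any basal sample, and Grik4 had 0.613 to 3.32 CPM at 7DIV and 2.33 to 3.76 CPM at 21DIV.

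Within the NMDA receptor genes, Grin3a was called and Grin2c went from almost no counts to a low level. Grin3a, which encodes the GluN3A subunit that lowers calcium permeability, was at 42.2, 32.5 and 38.2 CPM at 7DIV and at 88.7, 93.2 and 98.8 CPM at 21DIV. The groups were well separated (log2 fold change 1.34 ± 0.164, edgeR adjusted p = 2.68e-05), and Grin3a overlaps Ppp3r2 on the same strand. Grin2c, which encodes GluN2C, had 1 count in all at 7DIV (0, 0 and 0.271 CPM) against 3.46, 3.93 and 4.87 CPM at 21DIV, below the filter. Without that filter it was called (edgeR adjusted p = 0.000122). Grin1 stood at 153, 123.3 and 125.4 CPM and then at 194.5, 124.8 and 148.8 CPM, and Grin2b, which encodes the juvenile subunit GluN2B, at 147.3, 119.6 and 80.5 CPM and then at 106.7, 173.5 and 139.2 CPM. Neither was called (edgeR adjusted p = 0.281 and 0.29) and both overlapped between stages. Grin2a, which encodes the GluN2A subunit of mature synapses, was measured at 0 to 2.84 CPM at 7DIV and at 0.775 to 1.79 CPM at 21DIV, so a stage difference was not detectable at this depth.

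The delta receptor and the metabotropic receptors held 3 further calls. Grid1, which encodes the synapse organiser GluD1, rose from 20.8, 14.1 and 8.94 CPM to 22.5, 29.7 and 40.9 CPM (log2 fold change 1.16 ± 0.316, edgeR adjusted p = 0.0103), a call lost without 7DIV replicate 4 or 21DIV replicate 3. Grm2 (chromosome 9, 106644534 to 106656109), which encodes the presynaptic group II receptor mGluR2, was at 54.0, 52.8 and 69.9 CPM at 7DIV and at 8.3, 11.3 and 14.8 CPM at 21DIV. It fell by 2.32 on the log2 scale (SE 0.237, edgeR adjusted p = 4.99e-06), or 5.01-fold. Grm4, which encodes the group III autoreceptor mGluR4, was at 13.7, 14.7 and 19.5 CPM and then at 28, 21.3 and 28.4 CPM (log2 fold change 0.70 ± 0.238, edgeR adjusted p = 0.0321), with groups narrowly apart and a call lost without any of 4 samples. Grm3, Grm5, Grm7 and Grm8 were not called. Grm3, which encodes the group II receptor shared with astrocytes, ran from 8.05 to 11.4 CPM and from 11.3 to 18.9 CPM (edgeR adjusted p = 0.139), and Grm5, for the postsynaptic group I receptor mGluR5, from 111.6 to 148.4 CPM and from 91.5 to 112.4 CPM (edgeR adjusted p = 0.122). Grm7, for the active-zone receptor mGluR7, ran from 27 to 38.7 CPM and from 39.8 to 48.3 CPM (edgeR adjusted p = 0.0863), and Grm8, for its relative mGluR8, from 8.40 to 11.8 CPM and from 8.13 to 9.52 CPM (edgeR adjusted p = 0.779).

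Astrocyte and oligodendrocyte markers moved with stage as well: 11 of 12 astrocyte markers and 10 of 10 tested oligodendrocyte lineage markers were called higher at 21DIV, with medians of 2.50 and 2.71 on the log2 scale. Of 9 neuronal markers, 4 were called higher and 3 lower. Their part in the differences between stages was not tested.

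**Figure D2:**
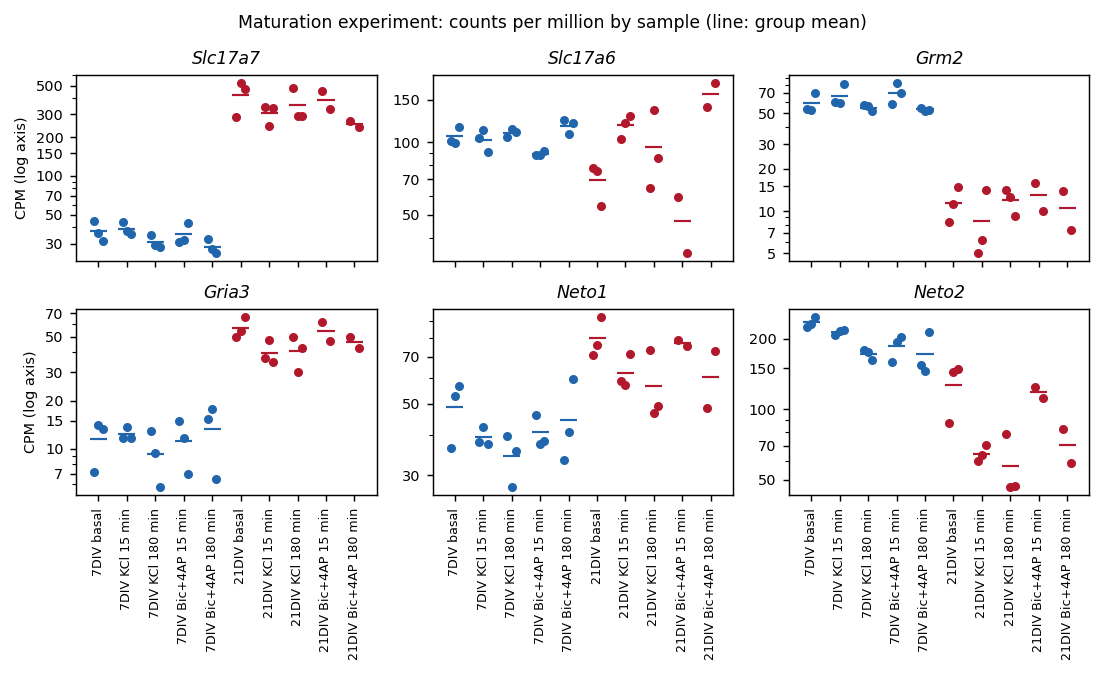
CPM (log axis) of Slc17a7, Slc17a6, Grm2, Gria3, Neto1 and Neto2 in each of the 28 samples of the maturation experiment, by stage, stimulus and time; points are samples, lines group means, blue 7DIV and red 21DIV. Slc17a7, Gria3 and Grm2 separate the stages in every group, and Slc17a6 at 21DIV is highest in the Bic with 4-aminopyridine samples at 180 min (139.6 and 175.8 CPM).

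At 7DIV no member was called after either stimulus. KCl called 0 of 26 members, beside 2.29% of all 11746 genes tested; 1 member (Gria4) had an unadjusted p under 0.05 in edgeR, DESeq2 and edgeR's likelihood ratio test called 0, and edgeR without the filter called 1. The lowest edgeR adjusted p was 0.126, and the members' median log2 fold changes were −0.02 at 15 min and −0.04 at 180 min. Bic with 4-aminopyridine called 0 of 26 members, beside 0% of all genes, of which 846 had an unadjusted p under 0.05 and which DESeq2 called in 26 cases. For 3 members (Gria4, Grik1 and Grik2) the unadjusted p was under 0.05, and no member had an edgeR adjusted p below 0.44. Gria4 was at 30.7, 32.4 and 26.5 CPM after 15 min of KCl and at 27.8, 23.8 and 32.3 CPM after 15 min of Bic with 4-aminopyridine, all below the 7DIV basal samples at 43.1, 71.8 and 43.9 CPM. These cultures did respond to KCl in other genes: 6 of 9 tested activity-regulated genes were called higher after KCl, and 0 of 9 after Bic with 4-aminopyridine.

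At 21DIV, more members were called lower than higher after KCl. Of 26 members, 6 were called (23.1%; 1 higher, 5 lower), beside 7.65% of all genes, and 7 of 9 activity-regulated genes were called higher. The members' median log2 fold change was −0.40 at 15 min and −0.20 at 180 min, against 0 and −0.02 for all genes. Oligodendrocyte lineage markers summed to 2030–2260 CPM at 15 min and 1310–1790 CPM at 180 min, below the basal 2520–3320 CPM, with 1 of 10 called higher and 1 lower. Neuronal markers summed to 8620–9550 and 8920–9010 CPM against a basal 9360–10700 CPM, with 2 of 9 called lower, and astrocyte markers to 4980–5560 and 3490–6960 CPM against 5430–6560 CPM, with 0 of 12 called by edgeR. Their part in the members' results was not tested. Neto2 fell at both times, with 60.1, 63.6 and 70.5 CPM at 15 min and 78.6, 46.6 and 47 CPM at 180 min, under the basal 87.1, 144.9 and 148.4 CPM. Its log2 fold changes were −0.97 ± 0.187 and −1.14 ± 0.19 (edgeR adjusted p = 0.00022). Grin3a was at 35.8, 30.5 and 39.9 CPM at 15 min and at 80.4, 43 and 41.3 CPM at 180 min, all below its basal samples. The log2 fold changes were −1.40 ± 0.221 and −0.77 ± 0.217 (edgeR adjusted p = 0.000367).

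The AMPA subunits Gria1 and Gria2 and the kainate subunit Grik2 fell at 15 min. Gria1 was at 137, 164.2 and 135.2 CPM at 15 min, below all basal samples (log2 fold change −0.65 ± 0.129, edgeR adjusted p = 0.00417). Gria2 was at 242.5, 401.5 and 401.1 CPM at 15 min (log2 fold change −0.59 ± 0.155, edgeR adjusted p = 0.00412), and its log2 fold change at 180 min was 0.17. Grik2 was at 37.6, 38.6 and 35.8 CPM at 15 min, below its basal samples (log2 fold change −0.65 ± 0.181, edgeR adjusted p = 0.0329). Slc17a6 rose, with 103, 120.1 and 128.8 CPM at 15 min (log2 fold change 0.76 ± 0.192, edgeR adjusted p = 0.0272) and 64.8, 136.2 and 86.1 CPM at 180 min, where it overlapped the basal samples. The call for Gria2 was lost without 21DIV basal replicate 2, 21DIV KCl 15 min replicate 1, 21DIV Bic with 4-aminopyridine 15 min replicate 1 or 7DIV KCl 15 min replicate 3, and those for Grik2 and Slc17a6 without any of 6 and 4 samples. The member count was 10 without 21DIV basal replicate 1, 3 without 21DIV basal replicate 2, and 2 when the fit held only the groups compared. Grin2b was at 20.9 CPM in the KCl 15 min replicate 1, the deepest library, and at 97.0 CPM or above in the other two samples, and it was not called.

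Bic with 4-aminopyridine at 21DIV called 7 of 26 members (26.9%; 1 higher, 6 lower), beside 12.3% of all genes. All 7 passed the fold threshold at 180 min, a group of 2 samples. The median log2 fold change of the members was −0.07 at 15 min and −0.39 at 180 min, and 8 of 9 activity-regulated genes were called higher. Slc17a6 rose to 139.6 and 175.8 CPM at 180 min from a basal 78.0, 75.8 and 54.2 CPM (log2 fold change 1.19 ± 0.21, edgeR adjusted p = 1.55e-05). At 15 min the same mRNA was at 59.4 and 34.7 CPM, below most basal samples (log2 fold change −0.59). Slc17a7 fell at 180 min to 266.2 and 239.8 CPM, below a basal 284.9, 524.3 and 472.8 CPM (log2 fold change −0.76 ± 0.224, edgeR adjusted p = 0.0487, a call lost in 17 of 28 fits that left out 1 sample). The log2 ratio of Slc17a7 to Slc17a6 was 3.09 ± 0.222 (SD, n = 2) at 15 min and 0.69 ± 0.342 at 180 min.

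The other members called lower at 180 min were an NMDA subunit, a kainate subunit, 2 receptor partners and a metabotropic receptor. Grin3a was at 29.8 and 37.2 CPM (log2 fold change −1.49 ± 0.26, edgeR adjusted p = 0.000509). Grm7 was at 11.4 and 22.2 CPM, after 33.7 and 29.2 CPM at 15 min (log2 fold change −1.38 ± 0.245 at 180 min, edgeR adjusted p = 0.00075). All samples of both genes lay below the basal samples. Grik2 was at 25.2 and 36.1 CPM (log2 fold change −0.95 ± 0.213, edgeR adjusted p = 0.00134), Neto2 at 82.4 and 59.1 CPM (−0.84 ± 0.215, edgeR adjusted p = 0.018) and Cnih2 at 1225 and 1685 CPM (−0.76 ± 0.15, edgeR adjusted p = 0.000597). These samples also lay below every basal sample of their gene. Without the 180 min replicate 2 only 2 members were called, with Cnih2, Grik2, Grin3a, Grm7 and Slc17a7 lost, and Neto2 was lost without the 180 min replicate 3. Astrocyte markers summed to 2400–4170 CPM in these 2 samples against 5430–6560 CPM in the basal samples, with 3 of 12 called lower, and 4 oligodendrocyte lineage markers were called lower. Their part in these results was not tested.

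Whether the responses themselves differed between stages was tested as an interaction. For KCl, 0 of 26 members were called in edgeR, beside 2% of all genes; the unadjusted p of 9 members was under 0.05, the lowest edgeR adjusted p was 0.0685 (Gria2), and DESeq2 and the likelihood ratio test each called 2, Gria1 and Gria2. For Bic with 4-aminopyridine, 3 members were called (11.5%), beside 4.01% of all genes, each at 180 min. Slc17a6 had a response higher by 1.05 ± 0.29 on the log2 scale at 21DIV than at 7DIV (edgeR adjusted p = 0.0176), that of Cnih2 was lower by −0.83 ± 0.198 (edgeR adjusted p = 0.0174) and that of Grm7 by −1.28 ± 0.327 (edgeR adjusted p = 0.0497). The Grm7 call was lost in 17 of 28 fits that left out 1 sample, and all 3 calls were lost without the 21DIV 180 min replicate 2. The Slc17a6 call was also lost without replicate 3 of that group, while its value stayed between 0.86 and 1.2 in all fits that left out 1 sample.

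Set directly against KCl at 21DIV in the maturation experiment, Bic with 4-aminopyridine differed in 5 of 26 members (19.2%; 3 higher, 2 lower), beside 5.87% of all genes. At 15 min Grin3a, Grik2 and Neto2 were higher than with KCl, by 1.24 ± 0.249, 0.92 ± 0.208 and 0.87 ± 0.213 on the log2 scale (edgeR adjusted p = 0.00218, 0.00134 and 0.0195), while Slc17a6 was lower by −1.35 ± 0.24 (edgeR adjusted p = 0.000558). At 180 min the difference was −0.72 for Grin3a, −0.87 for Grik2 and 0.72 for Slc17a6, each on the other side of 0 from its value at 15 min. Grm7 was lower than with KCl at 180 min by −1.21 ± 0.246 (edgeR adjusted p = 0.00404), a call lost without the Bic with 4-aminopyridine 180 min replicate 2, and its second transcript was at −0.003. The Neto2 call was lost without the KCl 15 min replicate 1 or either Bic with 4-aminopyridine 15 min sample. The second transcript of Grik2 was at 0.51 at 15 min and was not called (edgeR adjusted p = 0.438).

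**Figure D3:**
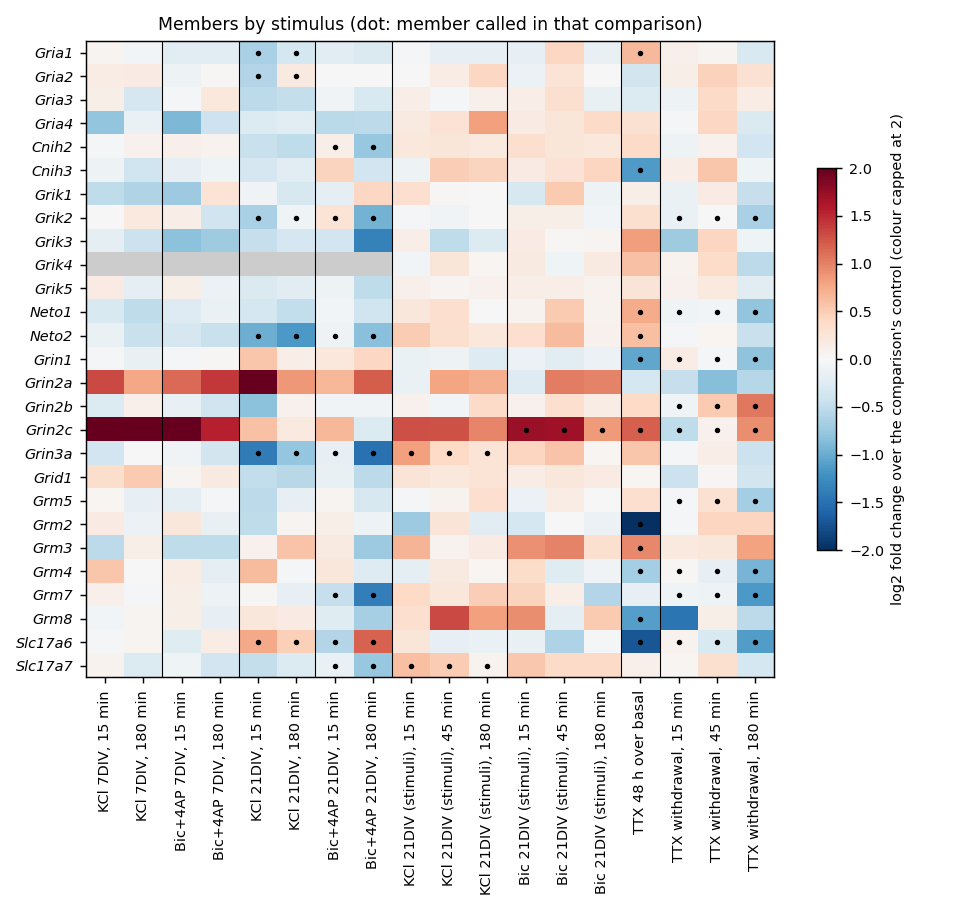
Log2 fold change (colour scale) of each member (rows, by role) at each time point of the stimulation, TTX and TTXw comparisons (columns); a dot stands at all time points of a comparison in which the member was called. Dots are absent at 7DIV and densest for TTX and TTXw; grey marks Grik4, not tested in the maturation experiment, and the colours of Grin2a and Grin2c at 7DIV rest on few counts.

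In the stimuli experiment, acute stimulation of 21DIV cultures called few members. KCl called 2 of 27 (7.41%), beside 6.04% of all 12027 genes tested. Grin3a rose at 15 min from 43.6, 42.1 and 33.4 CPM to 64.2 and 75.7 CPM (log2 fold change 0.82 ± 0.187, edgeR adjusted p = 0.024), and Slc17a7 from 200, 182.7 and 225.2 CPM to 299.4 and 312 CPM (0.59 ± 0.163, edgeR adjusted p = 0.0272). Slc17a7 stood at 302.8 and 273.9 CPM at 45 min. Leaving out 1 sample gave 1 to 3 members, and the count was 1 without any 1 of the 3 basal samples. Without the KCl 15 min replicate 2, a fit with 1 sample in that group, neither Grin3a nor Slc17a7 kept its call.

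Bic alone called 1 of 27 members (3.7%), beside 6.63% of all genes. Grin2c rose from 4.3, 4.84 and 2.27 CPM to 14.1 and 10.8 CPM at 15 min and stood at 16.2 and 9.60 CPM at 45 min and 7.33 and 6.67 CPM at 180 min. Every Bic sample lay above every basal sample, and the log2 fold changes were 1.73 ± 0.39, 1.70 ± 0.369 and 0.85 (edgeR adjusted p = 0.00298). Astrocyte markers moved with it: they summed to 3260–3810 CPM in the basal samples, 5080–5470 CPM at 15 min of Bic, 5790–6580 CPM at 45 min and 3690–4050 CPM at 180 min, with 5 of 12 called higher, and 4 of 10 oligodendrocyte lineage markers were called higher. With KCl the astrocyte sums were 5310–5400 CPM at 15 min, 4970–5020 CPM at 45 min and 4180–4230 CPM at 180 min, with 3 of 12 called higher. The part of these markers in the members' results was not tested. When single samples were left out the count was 1 to 4: it was 2 in most of these fits, 3 without TTXw 180 min replicate 3 and 4 without the basal sample titled replicate 5. Bic alone against KCl called 1 of 27 members (3.7%), beside 0.94% of all genes: Grm7 at 180 min was at 65.3 and 65.3 CPM with Bic and at 161.5 and 115.3 CPM with KCl, around basal samples at 102.6, 125.8 and 64.8 CPM (log2 difference −1.07 ± 0.21, edgeR adjusted p = 0.0244). That call was lost without either Bic 180 min sample or the KCl 180 min replicate 1. In the same contrast a second transcript of Grm7 was at −0.28 and was not called (edgeR adjusted p = 0.665). Activity-regulated genes were called higher in 7 of 9 cases with KCl and 8 of 9 with Bic.

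The KCl responses of the experiments are set side by side here, and their difference was not tested. Each experiment has its own basal samples and was normalised separately, and the separate cultures and libraries of the experiments cannot be told apart from other differences between them. At 15 min, 18 of 26 members were below their basal level in the maturation experiment, against 9 in the stimuli experiment, with medians of −0.40 and 0.16 on the log2 scale. At 180 min the counts were 17 and 8 and the medians −0.20 and 0.18. At each time 12 members were lower in the first experiment and higher in the second. Grin3a was called in both, lower in the maturation experiment (−1.40 at 15 min) and higher in the stimuli experiment (0.82). Its call in the stimuli experiment was lost without the KCl 15 min replicate 2 or the basal sample titled replicate 5.

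Silencing with TTX for 48 h gave the largest set of member calls in the stimuli experiment. Of 27 members, 11 were called (40.7%; 5 higher, 6 lower), beside 21.6% of all genes. The members' median log2 fold change was 0.26, against 0 for all genes. After TTX, 8 of 9 activity-regulated genes were called lower. Neuronal markers summed to 9700–10100 CPM in the basal samples and 7290–8430 CPM in the TTX samples, and astrocyte markers to 3260–3810 and 8480–9470 CPM, with 12 of 12 called higher. Oligodendrocyte lineage markers summed to 822–1270 and 2290–2330 CPM, with 7 of 10 called higher. Their part in the members' differences was not tested.

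The obligatory NMDA subunit and VGLUT2 were lower in silenced cultures. Slc17a6 was at 141.3, 162.3 and 119.4 CPM in basal samples and at 41.2, 40.7, 46.5 and 43.4 CPM after TTX, 3.28-fold lower (log2 fold change −1.72 ± 0.168, edgeR adjusted p = 1.71e-10). Grin1 was at 242.1, 260.1 and 252.5 CPM and then at 106.4, 128.9, 123.7 and 130.9 CPM, 2.05-fold lower (log2 fold change −1.03 ± 0.105, edgeR adjusted p = 4.3e-10). Both pairs of groups were far apart, with little spread inside each. Grin1 (chromosome 2, 25291177 to 25319187) overlaps Lrrc26 and an antisense gene on the opposite strand at its 3′ end, and without a stated use of strand their reads cannot be told apart.

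The Grin1 promoter is shown because Grin1 was the member with the smallest standard error among those called after TTX (chr2:25319138-25319437, minus strand, GRCm38.p6). Its capitals mark a GC box and, on the reverse strand, 2 copies of TGACG, the short motif that is part of the CRE site of CREB.
Grin1: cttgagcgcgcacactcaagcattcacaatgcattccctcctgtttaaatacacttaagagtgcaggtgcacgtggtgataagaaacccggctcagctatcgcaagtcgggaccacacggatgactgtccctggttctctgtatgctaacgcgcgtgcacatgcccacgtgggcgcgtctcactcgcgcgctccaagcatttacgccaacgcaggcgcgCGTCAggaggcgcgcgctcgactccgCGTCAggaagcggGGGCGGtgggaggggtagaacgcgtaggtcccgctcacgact
TGACG was in a promoter of 4 of the 18 members (Grin1, Grm8, Grik2 and, at its downstream start, Slc17a6) and in 20.8% of all promoters. The whole CRE, TGACGTCA, which contains TGACG, was in 0 of 18 and in 1.79% of all, and the AP-1 motif TGANTCA was in 1 (Grm8) and in 7.81% of all. No match says only that these letters are not in this window.

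Metabotropic receptors and Cnih3 fell with TTX as well. Grm2 was at 26.1, 21.2 and 38.7 CPM in basal samples and at 2.66, 2.32, 8.58 and 5.42 CPM after TTX, 5.98-fold lower (log2 fold change −2.58 ± 0.297, edgeR adjusted p = 7.12e-09). Cnih3 was at 37.0, 40.6 and 37.9 CPM and then at 22, 8.13, 30.0 and 13.4 CPM (log2 fold change −1.13 ± 0.209, edgeR adjusted p = 4.56e-05). In both genes every TTX sample lay below every basal sample, although the TTX samples of Cnih3 were widely spread. Grm4 went from 18.6, 33.5 and 25 CPM to 19.3, 13.9, 13.6 and 16.3 CPM, with overlap (−0.69 ± 0.212, edgeR adjusted p = 0.0116, lost without basal replicate 2). Grm8 went from 8.88, 6.70 and 3.03 CPM to 2.00, 1.16, 4.29 and 3.98 CPM, again with overlap (−1.09 ± 0.422, edgeR adjusted p = 0.0454, lost in 12 of 27 fits without 1 sample).

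The members that rose with TTX were an AMPA subunit, both kainate receptor partners, an NMDA subunit and a metabotropic receptor. Gria1 went from 211.5, 205.4 and 178.5 CPM to 355.9, 307.2, 316.2 and 271.6 CPM (log2 fold change 0.65 ± 0.123, edgeR adjusted p = 6.03e-05), and Neto1 from 88.3, 93.4 and 110.3 CPM to 180.3, 180.0, 133.8 and 153.7 CPM (0.74 ± 0.125, edgeR adjusted p = 1.28e-05). No TTX sample of either gene reached down to the basal samples. Neto2 went from 104, 110.5 and 143.7 CPM to 143.7, 168.4, 224.6 and 184.1 CPM, touching at the edge (0.60 ± 0.149, edgeR adjusted p = 0.0019). Grin2c went from 4.3, 4.84 and 2.27 CPM to 9.31, 6.39, 10 and 9.76 CPM (1.2 ± 0.351, edgeR adjusted p = 0.00792), and Grm3 from 12.9, 9.3 and 12.1 CPM to 27.9, 27.9, 15.7 and 18.8 CPM (0.96 ± 0.277, edgeR adjusted p = 0.00717). The calls for Gria1 and Grin2c were lost without the basal sample titled replicate 5, and that for Neto2 without any of 4 samples. Gria2 was not called: it was at 1442, 1332 and 1111 CPM and then at 971.1, 963.5, 1200 and 876.5 CPM (log2 fold change −0.37, edgeR adjusted p = 0.0735). The share of Gria1 in the counts on Gria1 to Gria4 went from 12.6% ± 0.439 (SD, n = 3) to 22.3% ± 2.18 (SD, n = 4), and that of Gria2 from 81.7% ± 0.876 to 71.2% ± 2.72.

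Washing out TTX called 9 of 27 members (33.3%; 2 higher, 7 lower), beside 13.2% of all genes. This comparison shares the TTX samples with the previous one, so the pair of comparisons is given side by side only. The median log2 fold change of the members was −0.03 at 15 min, 0.12 at 45 min and −0.39 at 180 min, and the called members ran from −0.51 to 0.15 at 15 min. All 9 called members passed the fold threshold at 180 min. Over the same comparison 8 of 9 activity-regulated genes were called higher. Neuronal markers summed to 4470–5490 CPM at 180 min, under the 7290–8430 CPM of the TTX samples, with 6 of 9 called lower, and GABA neuron markers to 2710–3420 CPM against 5240–6980 CPM, with 7 of 9 called lower and 1 higher. Astrocyte markers summed to 11900–16300 CPM. The part of these markers in the results at 180 min was not tested.

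NMDA subunits split during withdrawal. Grin2b (chromosome 6, 135713221 to 136173615) was at 190.9, 160.3, 233.9 and 173.2 CPM under TTX, at 316.3 and 225.1 CPM 45 min after washout and at 427.9, 281 and 477.6 CPM at 180 min. All 180 min samples lay above all TTX samples and above the basal 130.7, 140.7 and 160.3 CPM (log2 fold change from TTX 1.06 ± 0.149, edgeR adjusted p = 5.75e-07). Grin2c rose to 9.16, 18 and 24.3 CPM at 180 min, overlapping the TTX samples (0.93 ± 0.304, edgeR adjusted p = 0.0102, lost without TTXw 180 min replicate 2 or 3). Grin1 fell further, to 66.7, 72.4 and 72.9 CPM (−0.80 ± 0.121, edgeR adjusted p = 2.26e-06). The log2 ratio of Grin2b to Grin1 CPM in a sample was −0.81 ± 0.134 (SD, n = 3) in basal samples, 0.62 ± 0.305 (SD, n = 4) under TTX, 0.38 ± 0.172 at 15 min, 1.16 ± 0.24 at 45 min and 2.45 ± 0.427 (SD, n = 3) at 180 min.

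Slc17a6, which was low under TTX, fell again. Its samples were at 16.4, 25.6 and 15.2 CPM at 180 min, below all 4 TTX samples (log2 fold change −1.12 ± 0.226, edgeR adjusted p = 0.000665). The log2 ratio of Slc17a7 to Slc17a6 went from 0.529 ± 0.373 (SD, n = 3) in basal samples to 2.32 ± 0.161 (SD, n = 4) under TTX and 3.17 ± 0.358 (SD, n = 3) at 180 min. Neto1, which had risen under TTX, fell to 86.4, 100.8 and 91.9 CPM, overlapping the basal samples (−0.80 ± 0.132, edgeR adjusted p = 8.45e-05). Grik2 fell from 78.5, 86.0, 86.6 and 76.7 CPM to 47.1, 53.0 and 57 CPM (−0.64 ± 0.15, edgeR adjusted p = 0.00704, lost without TTXw 180 min replicate 1).

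The metabotropic receptors Grm5, Grm7 and Grm4 fell at 180 min. Grm7 went from 71.2, 97.6, 96.6 and 85.0 CPM to 34.7, 43.1 and 39.5 CPM (log2 fold change −1.15 ± 0.188, edgeR adjusted p = 6.56e-05). Grm5 went from 172.3, 187.6, 223.2 and 201.1 CPM to 119.7, 101.7 and 148.1 CPM (−0.68 ± 0.134, edgeR adjusted p = 4.96e-05, lost without TTXw 180 min replicate 2). Both had separate groups. Grm4 went to 6.54, 9.46 and 8.35 CPM (−0.94 ± 0.279, edgeR adjusted p = 0.0446), a call lost in 14 of 27 fits without 1 sample. Gria2 at 180 min was at 1455, 755.1 and 1517 CPM, with 1 sample below and the other two above all TTX samples, and it was not called. Its share of the AMPA subunit counts was 77.8% ± 3.16 (SD, n = 3) and that of Gria1 16.5% ± 2.34.

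**Figure D4:**
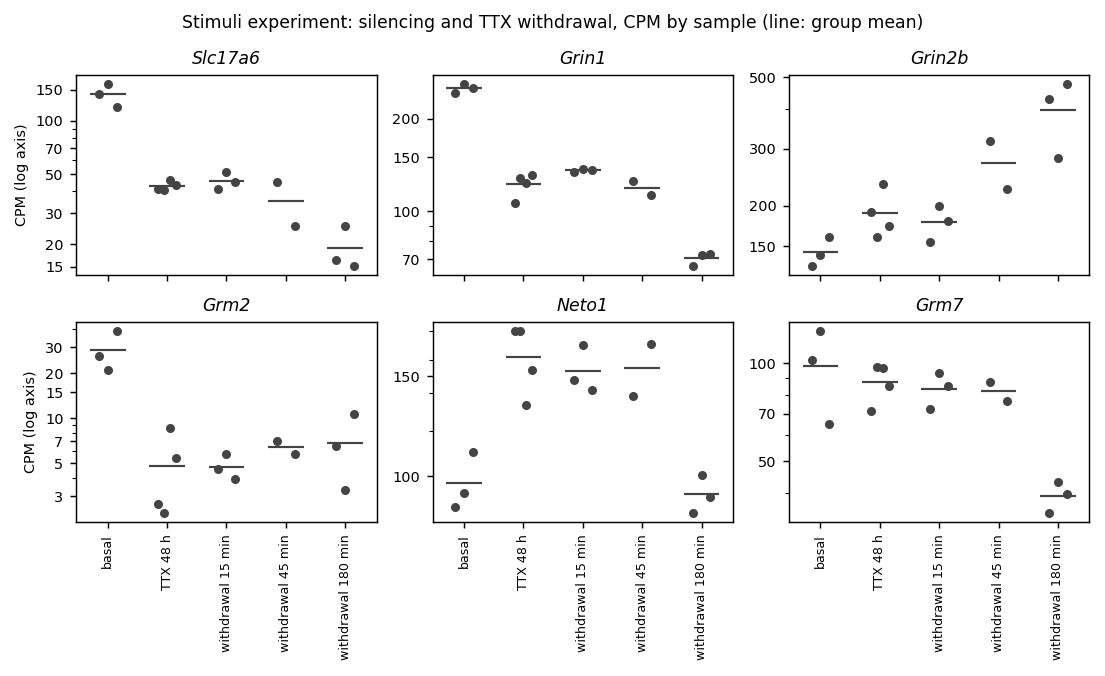
CPM (log axis) of Slc17a6, Grin1, Grin2b, Grm2, Neto1 and Grm7 in the basal, TTX and TTXw samples of the stimuli experiment; points are samples and lines group means. Slc17a6 and Grin1 step down with TTX and again by 180 min of TTXw, Grin2b steps up to 281 to 477.6 CPM, and Neto1 rises with TTX and overlaps the basal samples at 180 min.

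For Grm7 the answer depended on which annotated transcript was read. Grm7 (chromosome 6, 110645349 to 111567230) has annotated transcripts with unlike counts, and a second one held 48.4% of the leading one's counts in the maturation experiment. Where the 3′ ends of these transcripts lie was not examined. At 21DIV this second transcript was at 16.6, 7.33 and 9.4 CPM in basal samples and at 20.5 and 30.4 CPM after 180 min of Bic with 4-aminopyridine (log2 fold change 1.19 ± 0.407, edgeR adjusted p = 0.0753, not called), where the leading one fell by 1.38. After 180 min of KCl it rose to 20, 23.1 and 33 CPM (1.19 ± 0.37, edgeR adjusted p = 0.0292). Under TTX it fell from 24.6, 28.3 and 20.1 CPM to 17.3, 11.6, 10 and 9.4 CPM (−1.03 ± 0.239, edgeR adjusted p = 0.000879), while the leading transcript had a log2 fold change of −0.16 and was not called. During TTXw the second transcript had a log2 fold change of −0.39 at 180 min and was not called. With all of the gene's annotated transcripts summed, the value for Grm7 after Bic with 4-aminopyridine at 21DIV was 0.21. That sum adds transcripts with nearly the same counts (1983, 1940 and 1917 in the maturation experiment), which may hold the same reads. It can count a read more than once, so it does not settle the direction for the gene.

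**Figure D5:**
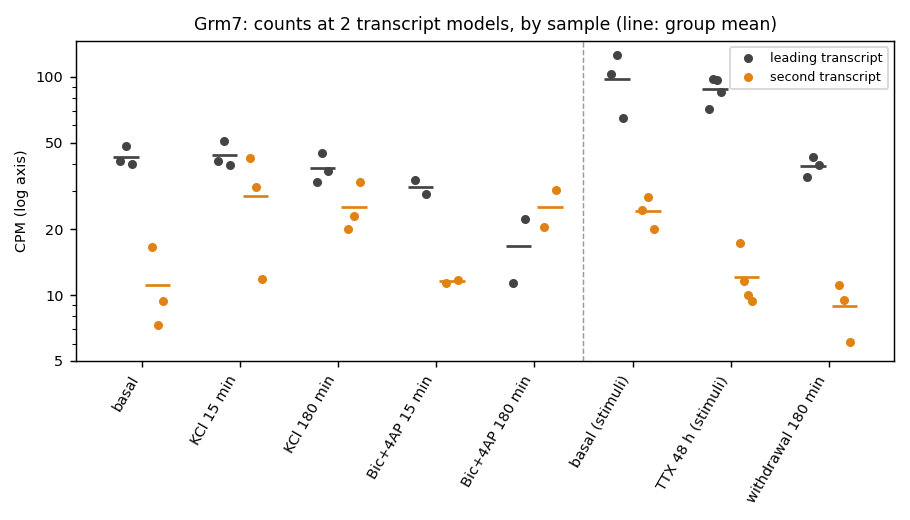
CPM of the leading and the second annotated transcript of Grm7 by sample, for all 21DIV groups of the maturation experiment and, from the stimuli experiment, the basal, TTX and TTXw 180 min groups. After 180 min of Bic with 4-aminopyridine the leading transcript lies at 11.4 and 22.2 CPM, below its basal samples, and the second at 20.5 and 30.4 CPM, above its own.

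Of the other members with a second transcript, Grin2b showed the same direction in both. Its second transcript, with 51.9% of the leading one's counts, had a log2 fold change of 1.19 ± 0.154 at 180 min of TTXw (edgeR adjusted p = 6.84e-08). Annotated transcripts of a gene may share reads, so like results for a pair of them are not independent. The second transcript of Neto1 was called with TTX (0.78) and not at 180 min of TTXw (−0.53). It was also called higher with Bic alone (0.70 ± 0.169 at 45 min, edgeR adjusted p = 0.00317). The leading one was at 0.53 there and not called (edgeR adjusted p = 0.055), while the summed transcripts were called (0.64, edgeR adjusted p = 0.00782). The second transcript of Grik2 was at 0.10 after 15 min of KCl at 21DIV, where the leading one was at −0.65, and was called lower in TTXw. After 180 min of Bic with 4-aminopyridine at 21DIV it was at −0.78 and was not called (edgeR adjusted p = 0.198). The second transcript of Grid1 had a log2 fold change of 0.79 ± 0.372 between stages and was not called (edgeR adjusted p = 0.109).

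Proteins that assemble and hold these receptors were counted from lists of other genes, with the share called to be read against the share of all genes given for the same comparison. Among 19 tested TARPs and other AMPA receptor auxiliary proteins, 11 were called higher and 1 lower at 21DIV than at 7DIV (63.2% called, beside 33.1% of all genes), with a median of 0.97: Gsg1l (3.91 ± 0.483) and Cacng3 (3.19), which encode channel-modulating partners, and Nptx2 (2.31), which encodes a secreted pentraxin that gathers AMPA receptors, were higher, and Cacng4 (−2.17), for an early TARP, was lower. After KCl at 21DIV in the maturation experiment 1 of 19 was called, Nptx2 (1.39 at 15 min), and after Bic with 4-aminopyridine 1, Abhd6 (0.73 at 180 min). These shares, 5.26% each, were below the 7.65% and 12.3% of all genes. In the stimuli experiment KCl called 2 of 18, Nptx2 (2.74 at 15 min) and Nptx1 (1.46), and Bic 3, Nptx2 (2.39), Nptx1 (1.09) and Cacng5 (0.81), or 11.1% and 16.7% beside 6.04% and 6.63%. TTX called 2 higher and 4 lower, with Nptx2 at −2.68, Cacng4 at −1.87, Nptx1 at 1.5 and Gsg1l at 0.70, and TTXw called 1 higher, Frrs1l (1.07 at 45 min), and 2 lower, Nptx1 (−0.90) and Cacng3 (−0.64), or 33.3% and 16.7% beside 21.6% and 13.2%.

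Scaffold and trafficking genes were called mostly higher by stage, and in either direction by the stimuli. Of 27 tested, 14 were called higher and 1 lower at 21DIV (55.6%, beside 33.1% of all genes; median 0.74), led by Nrgn (3.18), a calmodulin-binding protein of dendrites, Camk2a (2.84), the kinase of potentiation, Arc (2.04), which drives AMPA receptor endocytosis, and Dlg1 (1.96), the scaffold SAP97. KCl at 21DIV called 1 of 28 higher and 3 lower, namely Arc (1.18), Nrgn (−1.03), Dlgap3 (−1.01) and Dlgap1 (−0.81), and Bic with 4-aminopyridine 2 higher and 7 lower, among them Arc (2.10), Grasp (1.14), Nrgn (−1.65) and Dlgap3 (−1.35), or 14.3% and 32.1% beside 7.65% and 12.3%. In the stimuli experiment KCl called 6 higher and 0 lower, with Arc at 3.55 and Grasp at 1.46, and Bic 8 higher and 0 lower, with Arc at 5.38 at 45 min, Grasp at 1.48 and Camk2a at 1.45, or 21.4% and 28.6% beside 6.04% and 6.63%. TTX called 0 higher and 5 lower, including Grasp (−1.38), Arc (−1.30) and Dlg1 (−1.03), and TTXw 1 higher, Arc (1.91 at 45 min), and 5 lower, including Nsf (−0.94), Lrrtm1 (−0.91) and Dlg2 (−0.76), or 17.9% and 21.4% beside 21.6% and 13.2%. Arc is also in the activity-regulated list.

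Genes that supply and clear glutamate were called most often by stage and TTX. Of 12 tested, 8 were called higher and 1 lower at 21DIV (75% called, beside 33.1% of all genes; median 0.67), led by the astrocyte transporters Slc1a2 (3.27) and Slc1a3 (1.44), glutamine synthetase Glul (2.44) and the glutamine transporter Slc38a3 (1.67). TTX called 4 of 13 higher and 3 lower, with Glul at 1.41, Slc1a2 at 0.91, Slc1a3 at 0.86 and the glutaminase Gls2 at −1.93 (53.8% called, beside 21.6%). At 21DIV in the maturation experiment KCl called 1 of 13 (7.69%, beside 7.65%) and Bic with 4-aminopyridine 3 (23.1%, beside 12.3%), and in the stimuli experiment KCl and Bic called 3 each (23.1%, beside 6.04% and 6.63%). TTXw called 2 of 13 higher, Slc1a3 (0.90) and Glul (0.60), beside 13.2% of all genes called. Slc1a2 and Slc1a3 are also in the astrocyte list, whose level differed in the same comparisons.

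Across the 9 comparisons other than interactions and direct contrasts of stimuli against each other, 7 members were called in none: Gria4, Grik1, Grik3, Grik4, Grik5, Grin2a and Grin2d. Of these Gria4 and Grik5 were well above the filter, while Grik1, Grik3, Grik4, Grin2a and Grin2d were low, with 275 and 214 counts in all for Grin2a in the 2 experiments. Another 8 members were called in 1 comparison, 4 in 2 and 6 in 3. Slc17a6 was called in 5 comparisons, and Neto2 and Grin3a in 4 each.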

How the data were processed

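The authors deposited 2 tables of raw counts per RefSeq transcript, made from CEL-Seq2 libraries with a 6-base molecular identifier by STAR alignment and ESAT counting on mm10 (tools and build from the submitters' notes and the study's methods); whether identifiers were collapsed and whether strand was used are not stated. Transcripts were matched to genes through RefSeq (80.8% and 80.9% matched; 18.5% and 19.2% of counts stayed unmatched), and the leading transcript stood for the gene. The members and lists were chosen with earlier results of these data known. All members are named; of each wider list, up to 4 called genes with the largest absolute change.

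Each experiment was fitted apart with edgeR 4.0.16 in R 4.3.3 (TMM scaling, quasi-likelihood F test over the time points of a comparison, Benjamini-Hochberg adjustment over all genes tested), after a filter of more than 5 CPM in at least 2 samples; the basal stages were fitted on the 6 basal samples. A call needed an adjusted p under 0.05 and a 1.5-fold change at 1 time point. DESeq2 1.42.0, other scalings, filters, transcripts and omitted samples were the alternatives, and the fits were tested on simulated data. A second transcript as the readout was added after the data were seen. One stimuli column headed 2DIV was read as 21DIV, and 1 basal sample titled replicate 5 carries the number 2 in its description. No per-sample column of another series was found.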

Additional observations from a re-analysis of the deposited data

Results flagged for a closer look

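A difference between the stages in the response to Bic with 4-aminopyridine was found by the interaction test for 3 members, each at 180 min. On the log2 scale the 21DIV response minus the 7DIV response was −0.83 for Cnih2, −1.28 for Grm7 and 1.05 for Slc17a6. The 21DIV group at this time held 2 samples, and without replicate 2 of that group edgeR called 0 members, with Cnih2 at −0.62 and Grm7 at −0.86. The Slc17a6 call was also lost without replicate 3, with values of 1.2 and 0.86 without replicates 2 and 3, so for this gene the call was lost while the size stayed similar. The Grm7 value is that of its leading transcript.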

How the results depend on the processing

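Of 403 values, one for each called member change and alternative, 364 kept their direction and call, 37 lost the call and 2 changed direction. The 2 changes of direction came with summed transcripts, where a read shared by annotated transcripts of a gene can be counted more than once. Omitted samples and second transcripts are not among these values. With a second transcript, called changes of Gria2, Grid1, Grik2, Grm7 and Neto1 lost the call. Other called changes of Grik2 and Neto1, and those of Grin2b and Grm5, kept it, though the transcripts of a pair may share reads. With transcripts summed, Grm7 with Bic and 4-aminopyridine at 21DIV was 0.21 and its difference between stages 0.40; with a second transcript in place of the leading one these were 1.19 and 1.64, and Grik2 with KCl at 21DIV was 0.10. The cause was not tested. Member counts that moved by over 1.5 times were, for KCl at 7DIV, 1 with no filter; for KCl at 21DIV, 2 with only the groups compared; for the KCl difference between stages, 2 with DESeq2, 2 with the likelihood ratio test and 4 with no filter; for Bic with 4-aminopyridine against KCl, 8 with DESeq2; for KCl in the stimuli experiment, 5 with the likelihood ratio test and 0 with summed transcripts; for Bic alone, 2 with DESeq2, 3 with the likelihood ratio test, 2 with RLE scaling, 4 with no filter, 2 with summed transcripts and 3 with only the groups compared; for Bic against KCl, 0 with summed transcripts.

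Leaving out 1 sample gave 7 to 10 members for stage (7 without 21DIV basal replicate 3), 0 to 0 for KCl and for Bic with 4-aminopyridine at 7DIV, 3 to 10 and 2 to 9 for these at 21DIV, 0 to 4 for both differences between stages (for KCl 4 without 21DIV basal replicate 1 and 3 without 21DIV KCl 15 min replicate 3 or KCl 180 min replicate 1), 4 to 8 for Bic with 4-aminopyridine against KCl, 1 to 3 for KCl and 1 to 4 for Bic alone in the stimuli experiment, 9 to 11 for TTX, 6 to 10 for TTXw and 0 to 1 for Bic against KCl.

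Same-numbered samples showed little shared deviation from their group means. Their correlations had a median of 3.27e-05 (−0.247 to 0.114) in the maturation and 0.00764 (−0.0936 to 0.103) in the stimuli experiment. Whether the numbers stand for paired cultures is not stated, and these values cannot settle it. With the replicate number as a block, 50 of 56 called member changes kept their call, and the count was 1 for KCl and 3 for Bic alone in the stimuli experiment.

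Over all genes, counts differed by over 1.5 times for KCl at 7DIV (269; likelihood ratio 465, no filter 474), Bic with 4-aminopyridine at 7DIV (0; DESeq2 26, likelihood ratio 32, no filter 93, only the groups compared 2), KCl at 21DIV (899; summed 561, only the groups compared 431), the KCl difference between stages (235; DESeq2 467, likelihood ratio 582, no filter 682, summed 130, 106 fewer with the block, 104 fewer with only the groups compared), the Bic difference (471; DESeq2 731, likelihood ratio 846, no filter 802, block 306), Bic with 4-aminopyridine against KCl (690; only the groups compared 306), KCl (726; summed 416) and Bic alone (797; block 522, summed 448) in the stimuli experiment and Bic against KCl (0.94% of genes; likelihood ratio 230, no filter 265, summed 46, only the groups compared 236). Leaving out 1 sample gave 455 to 1205 genes for KCl at 21DIV, 468 (without Bic with 4-aminopyridine 180 min replicate 2) to 1811 for Bic with 4-aminopyridine at 21DIV, 100 to 483 and 82 (without that same replicate) to 690 for the KCl and Bic differences, 247 to 766 for Bic with 4-aminopyridine against KCl, 357 to 794 for KCl in the stimuli experiment and 2309 to 2615 for TTX, so the shares of all genes set beside the members move as well. Grin2a, Grin2c, Grin2d, Grik1, Grik3 and Grik4 had few counts.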

Other observations

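Low second transcripts gave a few calls of their own. That of Gria4 went with TTX from 27, 16 and 16 counts in the basal samples to 2, 6, 3 and 3 counts (log2 fold change −1.75 ± 0.471, edgeR adjusted p = 0.00395), while Gria4 by its leading transcript was called in no comparison. That of Gria3 was at 6, 7 and 11 counts in the 21DIV basal samples and at 28 and 25 counts after 180 min of Bic with 4-aminopyridine (log2 fold change 2.31, edgeR adjusted p = 0.0393).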
